A study of Homo sapiens with 4 samples.

Results

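NRF2 is the transcription factor that switches on antioxidant genes, and KEAP1 is the protein that holds it in check. The transcripts of both, and of 7 genes that lie downstream or remove oxidants directly (NQO1, HMOX1, TXNRD1, SRXN1, CAT, SOD1 and SOD2), were chosen by gene symbol and followed in MCP-1-treated and untreated 786-O cells. A probe set was found for 8 of the 9 genes, 1 each, out of 17687 genes named on the array, and SOD2 was not analysed here. The cells are a human clear cell renal carcinoma line, given as CRL-1932 in the array labels and known to lack functional VHL. MCP-1-treated cells received MCP-1 (CCL2, a chemokine that attracts monocytes) at 5 ng/mL for 16 h by the labels, while the paper's methods give a longer exposure. The other group, of the same passage, was left untreated. Both groups were grown in RPMI1640 with serum, penicillin and streptomycin. Each group comprised 2 Clariom S arrays, 1 for each dish of this single line, and a change in the level per cell cannot be told apart from a change in the share of cells that carry a transcript.

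Under resting conditions KEAP1 binds NRF2 and presents it to a CUL3-RBX1 ubiquitin ligase, so that NRF2 is degraded. Oxidants and electrophiles modify cysteines of KEAP1, whereupon NRF2 accumulates, pairs with a small MAF protein and binds antioxidant response elements in its target genes. This control acts on the protein, so the NFE2L2 transcript (the gene of NRF2) does not report NRF2 activity by itself, whereas target transcripts such as NQO1, TXNRD1 and SRXN1 are the usual readout. In renal carcinoma the pathway is known for occasional mutations of KEAP1, NFE2L2 or CUL3, and for its activation where fumarate accumulates.

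The core of the antioxidant response element, TGACNNNGC, was searched on both strands in the 250 bases before each gene start (RefSeq, GRCh38.p14). Windows were found for 6 of the 8 genes, 9 windows in all, and 3 of these, from KEAP1 and TXNRD1, held a match. The other 2, HMOX1 and SOD1, were not searched. A match is only a run of letters, and 10.9% of all 35116 windows hold one. The first start of TXNRD1, whose transcript showed the clearest separation between the groups, is shown in full (chr12:104215529-104215778, plus strand), with the match in capitals.
TXNRD1: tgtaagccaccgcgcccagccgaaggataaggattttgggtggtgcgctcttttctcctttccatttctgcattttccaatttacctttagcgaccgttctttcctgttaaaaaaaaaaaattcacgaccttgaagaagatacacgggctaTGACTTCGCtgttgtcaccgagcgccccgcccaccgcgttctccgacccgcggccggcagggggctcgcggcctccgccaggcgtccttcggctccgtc
The matches of both genes are set side by side, with 10 bases on either side, and each is read on the strand that carries the motif. They lie at chr19:10502807-10502835 (minus strand) and chr19:10502784-10502812 (plus strand) for KEAP1, and at chr12:104286920-104286948 (minus strand) before the second start of TXNRD1. Those of GCLM (chr1:93909446-93909474, plus strand) and ME1 (chr6:83431170-83431198, minus strand), which are established NRF2 targets, are given for comparison.
KEAP1 first: acttttattgTGACACGGCgggcgcccgg
KEAP1 second: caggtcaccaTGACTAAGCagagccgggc
TXNRD1 second start: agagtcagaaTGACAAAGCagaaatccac
GCLM: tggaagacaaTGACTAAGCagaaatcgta
ME1: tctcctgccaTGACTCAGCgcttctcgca
The 9 capital letters were identical in the second KEAP1 match and in GCLM. Of 22 other NRF2 target genes with a window, 7 held the core motif, beside 2150 of all 14250 genes on the array with a window. ME1 and AIFM2, 2 of these 7, held the stricter form TGACTCAGC, as did 81 of the 14250 genes. The stricter form stood in 0.456% of all windows and in none of the 6 genes here. The windows of NQO1, SRXN1, CAT and NFE2L2 do not contain these letters, which says nothing of elements farther away.

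None of the 8 transcripts differed between MCP-1-treated and untreated cells beyond the threshold, an adjusted p of 0.05 from limma over all 21448 probe sets tested. In the same fit 7 probe sets (0.0326%) passed, a count that was 0 with no replicate block, on centred arrays and after quantile normalization, and 49 to 69 under 3 other settings. At an unadjusted limma p under 0.05 none of the 8 genes passed either, against 4.95% of all probe sets. A fold change of at least 2 was found for none of them and for 0.434% of all probe sets. Across the 8 genes the log2 fold changes (MCP-1-treated minus untreated) ran from -0.37 for CAT to 0.20 for KEAP1. Their median was -0.086, and that of all probe sets was 0.013. The treated mean was lower for 5 genes and higher for 3.

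**Figure D1:**
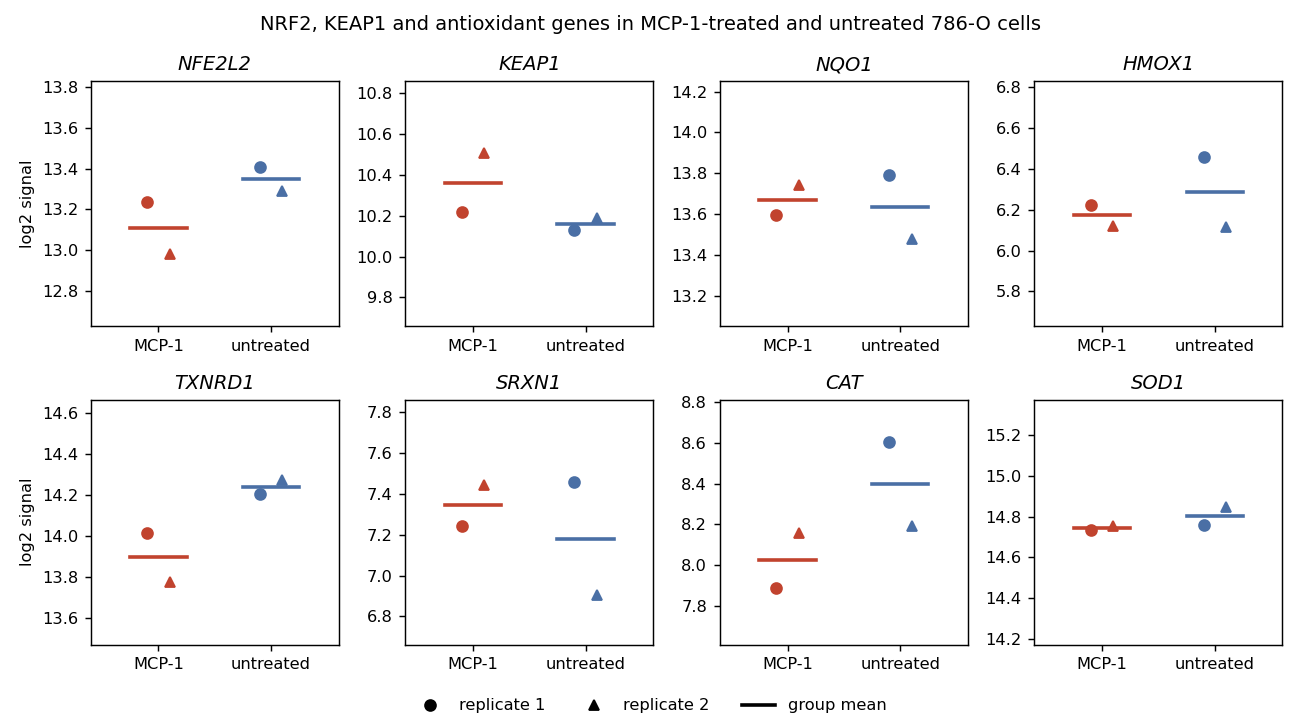
Log2 signal of the 8 genes on each array (y axis, each panel spanning 1.2 log2 units), with MCP-1-treated cells on the left and untreated cells on the right, circles for replicate 1, triangles for replicate 2 and lines for group means. The treated arrays of TXNRD1, 14.02 and 13.78, both lie below the untreated ones, 14.20 and 14.28, whereas the arrays of NQO1 and SRXN1 interleave.

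The regulators differed little between the groups, and in opposite directions. Signals are on a log2 scale, where a step of 1 is a 2-fold change. NFE2L2 had log2 signals of 13.23 and 12.98 in MCP-1-treated cells, and of 13.41 and 13.29 in untreated cells. Both treated arrays were lower than both untreated ones, yet the gap between the groups, 0.05, was smaller than the distance between the treated replicates, 0.25. The log2 fold change was -0.24 (standard error 0.24, 95% interval -0.78 to 0.30, unadjusted p = 0.346 from limma), and it lay between -0.37 and -0.11 when 1 array was left out.
KEAP1 had log2 signals of 10.22 and 10.51 in MCP-1-treated cells, and of 10.13 and 10.19 in untreated cells. Here both treated arrays were higher, by a gap of 0.03, while the treated replicates differed by 0.29. Its log2 fold change was 0.20 (95% interval -0.34 to 0.75, unadjusted p = 0.426 from limma), and without MCP-1-treated replicate 2 it was 0.06.

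Of the 4 NRF2 targets in the group, TXNRD1 was lower on both treated arrays, and NQO1, SRXN1 and HMOX1 had overlapping groups. TXNRD1 encodes the cytosolic thioredoxin reductase, which keeps thioredoxin reduced at the expense of NADPH. Its log2 signals were 14.02 and 13.78 in MCP-1-treated cells, averaging 13.90 ± 0.17, and 14.20 and 14.28 in untreated cells, averaging 14.24 ± 0.05 (SD, n = 2 arrays each). It was the only gene of the 8 whose difference between groups exceeded the range within either group, a pattern that 20.3% of all probe sets showed. The log2 fold change was -0.34 (standard error 0.25, 95% interval -0.89 to 0.20), a 0.787-fold level, with an unadjusted p = 0.192 and an adjusted p = 1 from limma. With a variance prior that follows the signal level and is estimated robustly, the unadjusted p of TXNRD1 was 0.0264 and the adjusted p from limma 0.813, within a range of 0.527 to 1 over the alternatives.
NQO1, a quinone reductase and the most widely used marker of NRF2 activity, had log2 signals of 13.59 and 13.74 in MCP-1-treated cells and of 13.79 and 13.48 in untreated cells. The untreated arrays enclosed the treated ones. Its log2 fold change was 0.03 (95% interval -0.53 to 0.59), that is between 0.695-fold and 1.51-fold.
SRXN1, the sulfiredoxin that repairs over-oxidized peroxiredoxins, had log2 signals of 7.24 and 7.44 in MCP-1-treated cells and of 7.46 and 6.90 in untreated cells. The untreated replicates were 0.55 apart, the widest range within a group among the 8 genes, and the replicate pairs went opposite ways, at -0.22 and 0.54. The log2 fold change of SRXN1 was 0.16 (95% interval -0.43 to 0.76).
HMOX1, the inducible heme oxygenase, had log2 signals of 6.23 and 6.12 in MCP-1-treated cells and of 6.46 and 6.12 in untreated cells. All 4 values were under the 90th percentile of negative control probe sets on the same array (here called the negative-control level), which was 6.36 and 6.70 on the treated arrays and 6.48 and 6.36 on the untreated ones. On each array that level exceeded the median signal of all probe sets tested, which was 6.20 to 6.28. A signal of HMOX1 above the level was therefore not detected in either group. Its log2 fold change of -0.11 (95% interval -0.66 to 0.43) carries little information on the transcript. The other 7 genes were above that percentile on every array.

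The enzymes that remove superoxide and hydrogen peroxide did not pass the threshold either. CAT, the peroxisomal catalase, had log2 signals of 7.89 and 8.16 in MCP-1-treated cells, averaging 8.02 ± 0.19, and of 8.61 and 8.19 in untreated cells, averaging 8.40 ± 0.29 (SD, n = 2 arrays each). The groups did not overlap, but by a gap of 0.03 only, since treated replicate 2 and untreated replicate 2 were nearly alike. The log2 fold change of CAT was -0.37 (standard error 0.26, 95% interval -0.96 to 0.21, unadjusted p = 0.185 from limma), the largest of the 8 in size. It was -0.71 in the first replicate pair and -0.03 in the second.
SOD1, the copper and zinc superoxide dismutase of the cytosol, was the steadiest gene of the group. Its log2 signals were 14.73 and 14.76 in MCP-1-treated cells and 14.76 and 14.85 in untreated cells, and the log2 fold change was -0.06 (95% interval -0.60 to 0.48).

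The groups did not overlap for 5 of the 8 genes, 4 lower and 1 higher, while 31.6% of all probe sets had groups that did not overlap (32.9% among those with a mean signal of at least 6.11, the 90th percentile of the mean signals of the negative controls). The gaps ran from 0.0035 to 0.19. For NQO1, SRXN1 and HMOX1, whose groups overlapped, the replicate pairs of the same number pointed opposite ways. For a single gene an exact permutation test of 2 arrays against 2 has 6 arrangements and cannot give a two-sided p below 0.333.
The size of change that the arrays allow can be read from the intervals. HMOX1 is an exception, since it lay below the negative-control level on all 4 arrays. With all 4 arrays each of the 8 intervals lay within a 2-fold change in either direction, the outermost bounds being a 0.514-fold level for CAT and a 1.69-fold level for SRXN1. The same held without the replicate block (bounds of -0.94 and 0.77 on the log2 scale). These intervals lean on the variance that limma shares across all probe sets. Against the fit without the block they widened for every gene when 1 array was left out. There the lone array of a group is assumed to vary like the other group. Against the fit with the block, those of KEAP1 and TXNRD1 narrowed slightly without a treated array. Without untreated replicate 2 only 4 of the 8 intervals stayed within 2-fold, with a bound of -1.33 for CAT.

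**Figure D2:**
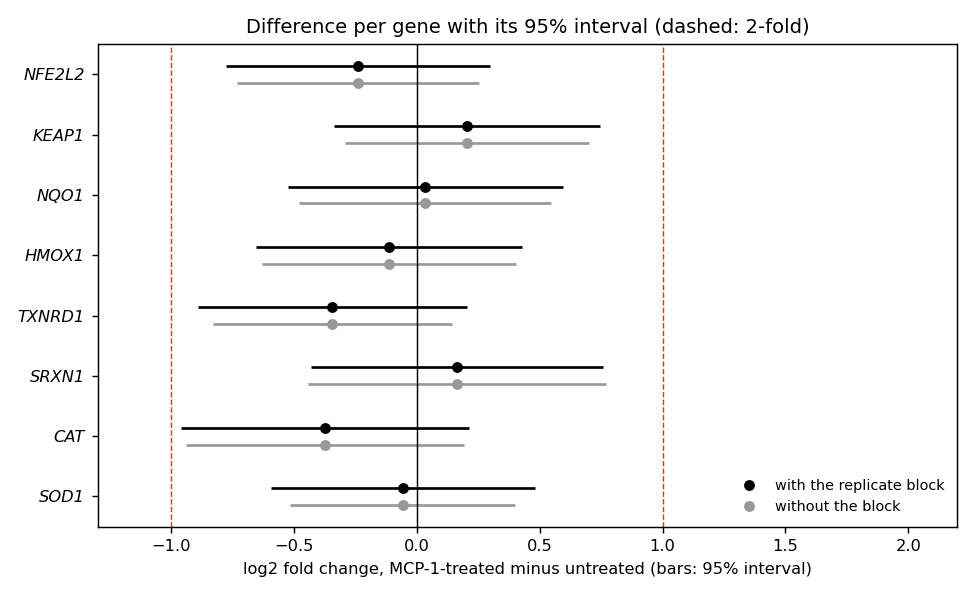
Log2 fold change, MCP-1-treated minus untreated (x axis), of the 8 genes with its 95% interval from limma, in black with the replicate number as a block and in grey without it, and dashed lines at a 2-fold change. Every interval crosses 0, and none reaches a dashed line, CAT coming closest at -0.96. That of HMOX1, below the negative-control level on all 4 arrays, carries little information on its transcript.

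**Figure D3:**
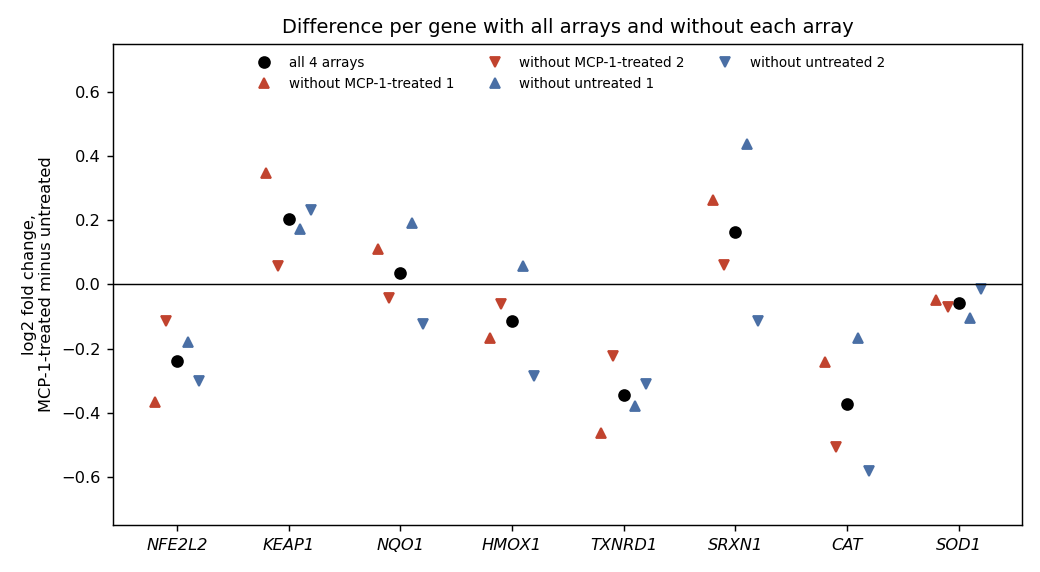
Log2 fold change, MCP-1-treated minus untreated (y axis), of each gene with all 4 arrays (black) and with 1 array left out (red for a treated array, blue for an untreated one). NFE2L2, TXNRD1, CAT and SOD1 stay below 0 and KEAP1 above it in all 5 fits, while NQO1, HMOX1 and SRXN1 change sign, SRXN1 between -0.12 and 0.44.

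The wider pathway was followed in 6 lists with 79 genes in all, 3 of which stood in 2 lists. No gene of these lists passed the adjusted threshold, and 2 passed an unadjusted limma p under 0.05, SLC7A11 lower and GPX7 higher, beside 4.95% of all probe sets. GPX7 lay below the negative-control level on all 4 arrays.

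None of the 13 measured partners that control NRF2 passed at an adjusted or an unadjusted p. The treated mean was higher for 11 and lower for 2. Their median log2 fold change was 0.06, and that of all probe sets 0.013. SQSTM1, BTRC and MAFF, at 0.012 to 0.0145, lay close to the latter. The groups did not overlap for 4 genes, all higher, beside 16.3% of all probe sets in that direction. MAFG, among these 4, lay below the negative-control level on all arrays. MAFK was not analysed here. CUL3, the ligase scaffold that KEAP1 recruits, had log2 signals of 11.91 and 11.92 in MCP-1-treated cells and of 11.41 and 11.59 in untreated cells. Both treated arrays of CUL3 were higher, with a log2 fold change of 0.42 (95% interval -0.12 to 0.96, unadjusted p = 0.117 from limma). DPP3, a peptidase that competes with NRF2 for KEAP1, had a log2 fold change of 0.42 and SYVN1, an ER ubiquitin ligase that can also target NRF2, one of 0.24, again with both treated arrays above the untreated ones. BACH1, the repressor of HMOX1, had overlapping groups and a log2 fold change of 0.24.

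Among 27 other NRF2 targets SLC7A11 stood apart. This gene encodes the cystine importer that feeds glutathione synthesis, and it is also a target of ATF4. Its log2 signals were 11.47 and 11.94 in MCP-1-treated cells and 13.09 and 13.15 in untreated cells, a log2 fold change of -1.42 (95% interval -1.97 to -0.86). The unadjusted p from limma was 1.69e-04, and the adjusted p of 0.213 did not pass. It passed where probe sets with a mean signal under 6.11 were left out, a floor lower than the level on each array and one that HMOX1 cleared (adjusted p = 2.61e-04 from limma, within a range of 4.58e-12 to 1 over the alternatives). No other gene of this list had an interval that excluded 0.
For the other 26 targets the log2 fold changes ran from -0.41 to 0.36. ABCB6, a porphyrin transporter, was at -0.41 with signals that lay below the negative-control level on 2 of the 4 arrays, and CBR3, a carbonyl reductase, was at 0.36. The glutathione synthesis subunits GCLC and GCLM had log2 fold changes of 0.16 and 0.13, and ME1, a source of NADPH, had one of 0.25. The groups of GCLC overlapped. PGD, TALDO1 and TKT, of the same list, went the other way, at -0.09, -0.15 and -0.08. The median of the list was -0.03, with 10 higher and 17 lower treated means. The groups did not overlap for 4 genes in the higher and 8 in the lower direction, beside 16.3% and 15.2% of all probe sets. Of the 27 targets, 5 lay below the negative-control level on all 4 arrays and carry little information, among them AKR1C2, 1 of the 8. FTH1 was not analysed here.

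The next list held 21 measured genes of the thioredoxin, peroxiredoxin, glutaredoxin, glutathione peroxidase and methionine sulfoxide reductase families. The treated mean was higher for 10 and lower for 11, with a median of -0.0075. The groups did not overlap for 1 gene in the higher and 3 in the lower direction, beside 16.3% and 15.2% of all probe sets. On all 4 arrays 3 of the 21 genes lay below the negative-control level, among them GPX7, the 1 higher gene. TXN, the thioredoxin that TXNRD1 reduces, had a log2 fold change of -0.03, and PRDX1, a peroxiredoxin that SRXN1 repairs, one of -0.0075. GPX7, an ER peroxidase, had a log2 fold change of 0.61 (unadjusted p = 0.0403 and adjusted p = 0.981 from limma). Its log2 signals were 3.79 and 4.47 in MCP-1-treated cells and 3.48 and 3.57 in untreated cells. MSRB2, a mitochondrial methionine sulfoxide reductase, and GLRX2, a mitochondrial glutaredoxin, had log2 fold changes of -0.44 and -0.45, both with all treated arrays below the untreated ones (unadjusted p of 0.0983 and 0.106 from limma). PRDX5 was not analysed here.

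Around the superoxide dismutases, SLC31A1, the copper importer, had a log2 fold change of -0.28, CCS, the copper chaperone of SOD1, one of 0.25 with overlapping groups, and ATOX1, another copper chaperone, one of -0.12. Among 9 measured genes of heme and iron handling 6 had a higher treated mean and the median was 0.12. Of these 9, 1 lay below the negative-control level on all 4 arrays. BLVRB, a biliverdin reductase that acts downstream of heme oxygenase, had log2 signals of 12.76 and 12.86 in MCP-1-treated cells and of 13.12 and 13.17 in untreated cells, and a log2 fold change of -0.33 (95% interval -0.87 to 0.20). ALAS1, the first enzyme of heme synthesis, was at 0.32, but at 0.10 without MCP-1-treated replicate 1. FLVCR1, a heme exporter, was at 0.22, but at 0.041 without untreated replicate 2.
Of 8 measured genes that produce superoxide or peroxide, 7 lay below the negative-control level on all 4 arrays, among them NOX4, the NADPH oxidase of the kidney, DUOX1 (-0.36) and NOX3 (0.23). The exception was CYBA, the membrane subunit shared by several NADPH oxidases, with a log2 fold change of -0.20 (95% interval -0.74 to 0.34). NOX5 was not analysed here.

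**Figure D4:**
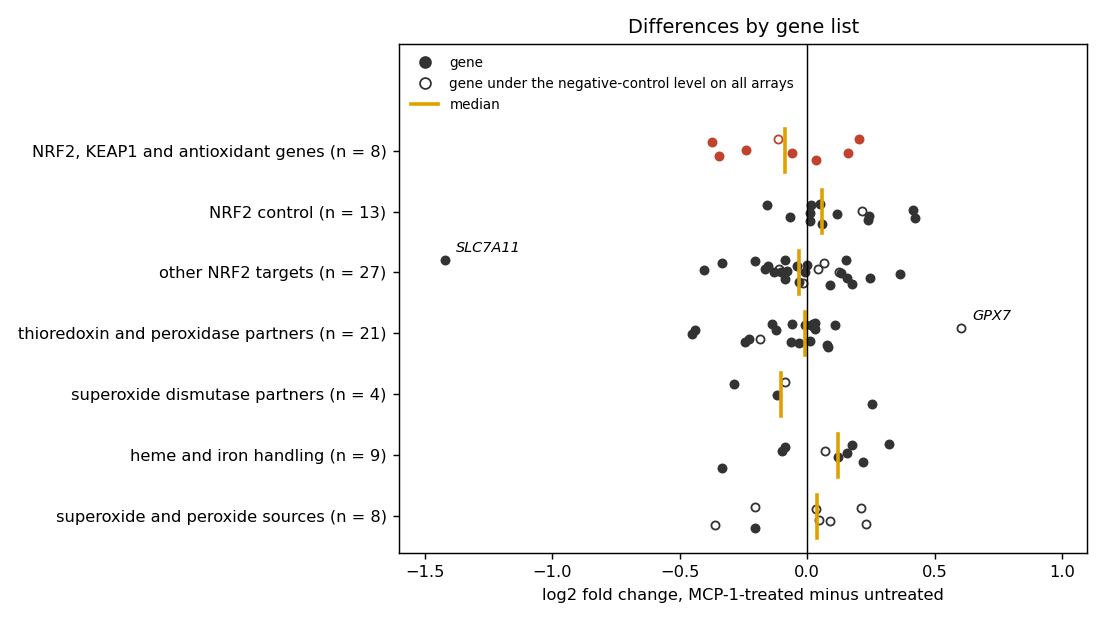
Log2 fold change, MCP-1-treated minus untreated (x axis), of the 8 genes (red) and of the measured genes of the 6 pathway lists (black), with open symbols for genes below the 90th percentile of negative controls on all arrays and yellow bars for medians. Points are jittered vertically. All but SLC7A11, at -1.42, and GPX7, at 0.61, lie between -0.45 and 0.42.

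The arrays had median log2 signals of 6.20 and 6.28 in MCP-1-treated and 6.23 and 6.23 in untreated cells, and correlations across probe sets between 0.993 and 0.995. The negative-control level was highest on MCP-1-treated replicate 2, at 6.70, against 6.36 to 6.48 on the other 3 arrays, and its part in the differences of dim genes was not tested. The renal carcinoma markers PAX8, PAX2, KRT8, KRT18, CDH2, VIM and EPAS1 were above the negative-control level on all arrays. Of markers of other cells, 7 of 8 for macrophages, 5 of 5 for lymphocytes and 6 of 6 for endothelium lay below that level on every array, and the exception, CD68, a lysosomal protein, had a log2 fold change of 0.02.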

How the data were processed

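RNA of 786-O cells was hybridized to Clariom S arrays, 2 of MCP-1-treated and 2 of untreated cells. The authors deposited log2 signals, 1 per probe set and array, computed in Affymetrix Expression Console 1.4 with RMA after a Signal Space Transformation. Background correction, normalization and the summary of probes are thus in the values and were not redone. The table has 24351 probe sets, and after removal of 2903 controls 21448 were tested. The 612 negative control probe sets served as the background level, per array for single genes and by their mean signals for the filter. Gene symbols come from the platform table. The number of arrays limits the precision. The p-values from limma rest only on the spread between these dishes, and for each gene largely on that shared across all probe sets.

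Group differences were estimated by limma 3.58.1 (R 4.3.3) in a model holding group plus the replicate number, because the study used a paired test. This leaves 1 residual and 9.60 prior degrees of freedom. Same-numbered arrays are not shown to be pairs (correlation of their deviations from the group means -0.047). The Benjamini-Hochberg adjustment ran over every probe set tested. Named genes are the 8 measured genes of the group and the 3 genes with the smallest limma p in each of 6 lists. NOX4, TXN, PRDX1, BACH1, GCLC, GCLM, ME1, AIFM2 and the markers were named after their values were seen. The same holds for SQSTM1, BTRC, MAFF, MAFG, PGD, TALDO1, TKT and AKR1C2. The members and lists were chosen with earlier results of these data known. Alternatives were the fit without the block, filters on dim probe sets, other scalings, another variance prior, single probe sets for each gene, leaving out arrays in turn and the methods' t-test. The script was tested on simulated data. Promoter windows come from RefSeq (GRCh38.p14). Python 3.11.15 and matplotlib 3.10.9 were used for tables and figures.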

Additional observations from a re-analysis of the deposited data

How the results depend on the processing

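Under 12 other settings and with the methods' t-test, none of the 8 genes passed an adjusted threshold, the lowest adjusted p from limma being 0.527. Of 95 values of single genes, 91 kept their sign. The 4 that turned came from leaving out 1 array, which was done without the replicate block. NQO1 was at -0.041 without MCP-1-treated replicate 2 and at -0.12 without untreated replicate 2, SRXN1 was at -0.12 without untreated replicate 2, and HMOX1 was at 0.058 without untreated replicate 1. Among the other named genes CCS was at -0.012 without MCP-1-treated replicate 2 and NOX3 at -0.13 without untreated replicate 1. The median of the 8 genes ran from -0.20 to -0.023 when 1 array was left out.
The count of all probe sets called, 7, was less stable. It was 0 with no replicate block, on centred arrays, with quantile normalization and in each fit without 1 array, 51 without probe sets below the median signal, 49 without those with a mean signal under 6.11 (the 90th percentile of the mean signals of the negative controls), and 69 with a variance prior that follows the signal and is estimated robustly, 2 choices changed together. By the methods' t-test 20 passed at a fold of 2, 123 at a fold of 1.5 and 4 after Benjamini-Hochberg adjustment. In that t-test p was set to 0 where both replicate pairs differed by the same amount. An unadjusted limma p under 0.05 was passed by 1061. With no replicate block the count for the 8 genes was 0 as well. In the pathway lists 1 gene, SLC7A11, was called without probe sets below the median, without those under 6.11 and with that variance prior, and 2 passed the unadjusted p. The cause of these differences was not tested. HMOX1 was not tested where probe sets below the median were left out. Raw scans were not used, so the deposited normalization could not be varied.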
